A study of Mus musculus with 10 samples.

Results

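Transcripts of the Notch pathway were described here in differentiating mouse embryonic stem cells: the receptors Notch1, Notch2, Notch3 and Notch4, the ligands Dll1, Dll3, Jag1 and Jag2, and the effectors Hes1 and Hes5. Members were taken as every probe set that the array's annotation pairs with one of these symbols and no other. This gave 19 of 45101 probe sets and 10 of 18194 named genes, and all members were measured, since no filter on dim genes was applied. The arrays came from the mouse embryonic stem cell line NG4, reverse transfected with an siRNA, a short double-stranded RNA that directs the cutting of 1 transcript. The cells were differentiated with retinoic acid, and RNA was taken 48 h after transfection. The 5 groups of 2 arrays received the non-targeting siRNA (siNonTarget, the control) or an siRNA against Sox17, Fbxw7, Socs3 or Rnf31, and all 5, the control included, were transfected and given retinoic acid. The labels do not say whether the 2 arrays of a group came from separate cultures, so every p-value measures the spread between these samples only, which may be technical.

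Notch receptors are membrane proteins that are bound by Delta-like (Dll) and Jagged (Jag) ligands on neighbouring cells. Binding leads to cleavage of the receptor by ADAM proteases and gamma-secretase, and the freed intracellular domain enters the nucleus and joins the DNA-binding protein RBPJ to switch on genes such as Hes1 and Hes5, which encode repressors of neuronal differentiation genes. In embryonic stem cells Notch signalling is known for its role in entry into the neural lineage, and Fbxw7, one of the genes the siRNAs target, encodes the part of a ubiquitin ligase that marks the intracellular domain for breakdown. The arrays measured transcripts and carry no measure of cleaved receptor.

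Every value below is an intensity, the brightness of a probe set on a linear scale, or a difference of log2 intensities with its standard error (SE). Differences were tested with limma, a linear model fitted across all 18194 genes over the 10 arrays, and p-values were adjusted by the Benjamini-Hochberg method over all genes within a comparison. A gene passed where its adjusted p was under 0.05, and the probe set of highest mean intensity over all arrays stood for its gene. Levels of different genes are not compared, because probe sets differ in how brightly they respond.

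Array medians lay between 46.39 and 47.95. The difference between the 3' and 5' actin probe sets, a sign of RNA quality, was 0.50 and 0.60 on the log2 scale on siNonTarget replicate 1 and siFbxw7 replicate 1, against 0.21 to 0.29 on the other 8 arrays. None of the 4 targeted transcripts passed limma's test in its own group: the differences from siNonTarget were 0.44 ± 0.24 (SE) for Socs3, 0.03 ± 0.53 for Sox17, -0.25 ± 0.15 for Fbxw7 and -0.40 ± 0.17 for Rnf31, with adjusted p of 0.281, 0.988, 0.775 and 0.778. The transcripts therefore do not check the labels, and because Socs3 was measured above the control in its own group, each direction below belongs to the arrays labelled siSocs3, siSox17, siFbxw7 or siRnf31. Of the 10 markers of embryonic stem cells, 6 rose on the arrays labelled siSocs3 against siNonTarget, where 3.59% of all genes rose. Of the 10 differences, 8 were above 0 and 2 below, and in 1 marker both siSocs3 arrays lay below both control arrays. The list was bright on every array, with a mean log2 intensity of 10.53 to 11.65.

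On the arrays labelled siSocs3, the receptors Notch1, Notch2 and Notch4 and the effector Hes1 fell by 1.51 to 2.05-fold against siNonTarget, and no member rose. These were 4 of 10 members (limma, Benjamini-Hochberg adjusted p under 0.05), where 9.26% of all genes passed in either direction, 5.66% as lower and 3.59% as higher. The ligands and Hes5 did not pass. The median difference over the 10 members was -0.49, against 0.03 over all genes. In 6 members both arrays labelled siSocs3 lay below both control arrays and in 1 member, Dll3, both lay above them, where 57.2% of all genes showed such a separation, 26.7% as lower and 30.6% as higher. At an unadjusted p under 0.05 there were 6 members, where 26.2% of all genes passed. The plot of intensities by array shows each member on every array.

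**Figure D1:**
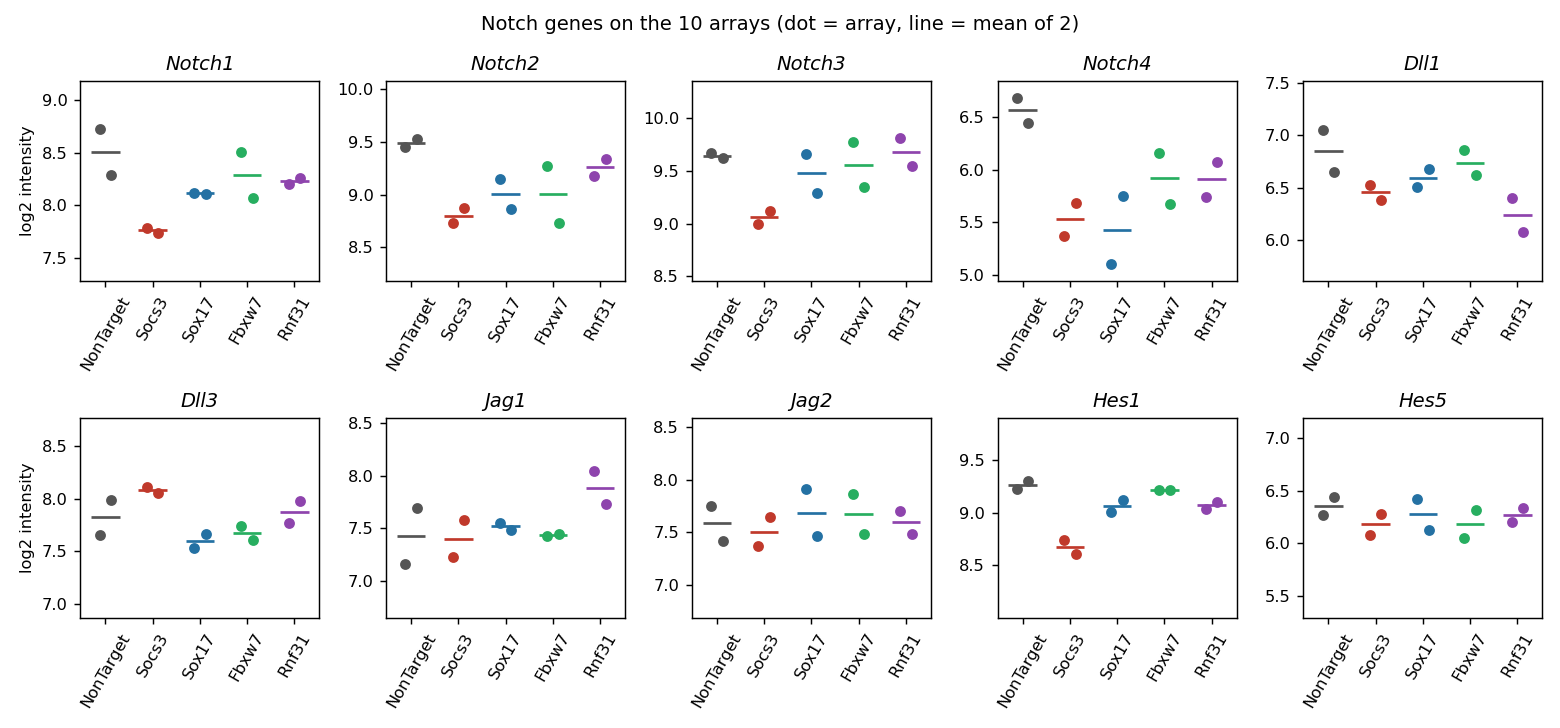
Log2 intensity (vertical axis) of the 10 members on each of the 10 arrays, by siRNA group (horizontal axis); each dot is an array and each line the mean of the 2 arrays of a group. Both arrays labelled siSocs3 lie below all 8 others for Notch1, Notch3 and Hes1, and above all 8 for Dll3.

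Notch1, a receptor that the early mouse embryo needs, read 423 and 312 on the siNonTarget arrays and 221 and 214 on the arrays labelled siSocs3. It read 278 and 277 with siSox17, 365 and 269 with siFbxw7 and 294 and 307 with siRnf31. The arrays labelled siSocs3 were the lowest of all 10, and siNonTarget replicate 1 stood well above every other array except siFbxw7 replicate 1. Against siNonTarget, Notch1 fell by 0.74 ± 0.17 (SE, n = 2 arrays a group, limma adjusted p = 0.0312), a 1.67-fold lower level. The call was lost when siNonTarget replicate 1 was left out (-0.52, adjusted p = 0.152), when either siSocs3 array was (adjusted p = 0.177 and 0.119) and when either siSox17 array was (adjusted p = 0.0553). The other Notch1 probe set read 147 and 144 in the control and 106 and 110 with siSocs3, again without overlap, and its difference was -0.43 ± 0.13 (adjusted p = 0.0962 in a limma fit over all 45101 probe sets).

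Notch2, a receptor with the same cleavage steps, read 702 and 739 in the control and 424 and 467 on the arrays labelled siSocs3. It read 566 and 464 with siSox17, 619 and 425 with siFbxw7 and 580 and 647 with siRnf31. Both control arrays were above all other 8, and the lower siSox17 and siFbxw7 arrays were as low as those labelled siSocs3. Notch2 fell by 0.69 ± 0.18 on the arrays labelled siSocs3 (limma adjusted p = 0.0427), a 1.62-fold lower level. With 1 array left out at a time the call stayed in 2 of 10 fits, the fewest of the 4 called members, and only when a siFbxw7 array was the one left out, and the adjusted p was 0.127 and 0.12 without siNonTarget replicates 1 and 2, 0.252 and 0.108 without siSocs3 replicates 1 and 2, 0.058 without either siSox17 array and 0.0578 without either siRnf31 array. The second Notch2 probe set was dim, at 13.1 to 18.2 over the 10 arrays, and did not go the same way (0.20 ± 0.11, adjusted p = 0.355 over all probe sets).

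Notch4, a receptor best known from blood vessels, had the widest spread among the members, with 103 and 86.8 in the control and 41.4 and 51.5 on the arrays labelled siSocs3. Its intensities were 34.3 and 53.8 with siSox17, 71.6 and 51.0 with siFbxw7 and 53.5 and 67.2 with siRnf31. Both control arrays lay above all 8 others, and the lowest array was siSox17 replicate 1. Notch4 fell by 1.03 ± 0.24 on the arrays labelled siSocs3 (limma adjusted p = 0.0331), a 2.05-fold lower level, the largest fold among the members in this comparison. The call was lost without siNonTarget replicate 1 (-0.91, adjusted p = 0.148) or 2 (-1.16, 0.0622) and without siSocs3 replicate 1 (-0.88, 0.233) or 2 (-1.19, 0.0751). The other 2 Notch4 probe sets were near the bottom of the scale, at 13.0 to 15.9 and 8.83 to 11.98, and were not lower with siSocs3. The 6 endothelial markers, measured because vessels express Notch4, had a mean log2 intensity of 5.16 to 5.37 in the control and 5.23 to 5.42 with siSocs3, and 0 of 6 passed limma's test. Of the 6 differences, 3 were above 0 and 3 below. By limma, 3 markers had an unadjusted p under 0.05, beside 26.2% of all genes. The part of such cells in the Notch4 values was not tested.

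Notch3, the remaining receptor, read 815 and 788 in the control and 511 and 558 on the arrays labelled siSocs3. It read 811 and 628 with siSox17, 878 and 650 with siFbxw7 and 900 and 747 with siRnf31. The arrays labelled siSocs3 were the lowest of the 10, but the difference of -0.58 ± 0.17 did not pass (limma adjusted p = 0.0699). It passed without either siFbxw7 array (adjusted p = 0.0405) and with only the siSocs3 and siNonTarget arrays in the fit (0.0381). The second Notch3 probe set read 161 and 112 in the control and 80.9 and 90.6 with siSocs3, with a difference of -0.65 ± 0.30 (adjusted p = 0.259 over all probe sets).

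Hes1, a repressor whose gene is a direct target of the Notch intracellular domain, differed by at most 0.13 on the log2 scale between the 2 arrays of any group. It read 599 and 629 in the control and 427 and 390 on the arrays labelled siSocs3. The other groups lay between, at 513 and 555 with siSox17, 593 and 595 with siFbxw7 and 525 and 548 with siRnf31. The 2 arrays labelled siSocs3 stood below all other 8. Hes1 fell by 0.59 ± 0.10 (limma adjusted p = 0.0114), a 1.51-fold lower level, the smallest fold of the 4 called members with the smallest adjusted p. It stayed called in 7 of 10 fits with 1 array left out. Without siNonTarget replicate 1 and siSocs3 replicates 1 and 2 the adjusted p was 0.0523, 0.083 and 0.0611, with differences of -0.62, -0.66 and -0.52.

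Hes5, the other effector and a marker of Notch activity in neural progenitors, read 77.0 and 86.7 in the control and 67.7 and 77.4 on the arrays labelled siSocs3. The 2 groups overlapped, and over all 10 arrays Hes5 kept within 66.0 to 86.7. Its difference was -0.17 ± 0.14 (limma adjusted p = 0.485), with a 95% interval of -0.50 to 0.15. The second Hes5 probe set was dim, at 14.7 to 19.1.

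Stretches of promoter are shown for Notch1 and Notch4, which fell, and for Hes5, whose promoter holds the RBPJ motif; each is the 120 bases before the start of the gene, 5' to 3' on the gene's strand, as RefSeq gives it for GRCm38.p6. Capitals mark the motifs.
Notch1 (chr2:26503823-26503942, minus strand): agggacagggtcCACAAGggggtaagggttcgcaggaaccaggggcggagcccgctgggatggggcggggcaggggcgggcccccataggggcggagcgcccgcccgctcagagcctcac
Notch4 (chr17:34564175-34564294, plus strand): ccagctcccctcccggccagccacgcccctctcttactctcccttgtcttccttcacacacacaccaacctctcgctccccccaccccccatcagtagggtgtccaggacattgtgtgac
Hes5 (chr4:154960803-154960922, plus strand): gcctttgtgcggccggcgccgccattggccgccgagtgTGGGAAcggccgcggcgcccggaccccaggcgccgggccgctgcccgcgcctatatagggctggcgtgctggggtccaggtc
The 250 bases before the start were searched on both strands for TGGGAA (the core bound by RBPJ), CACNAG (the N-box bound by HES proteins) and AGGTCA (a half-site of nuclear receptors, among them the retinoic acid receptors). Hes1 had no promoter in the sequences used, so it was not searched for any motif. Of the 9 other members, Hes5 held TGGGAA, at bases 226 to 221 and 82 to 77 before the start. The motif was in 21.6% of 32851 promoters searched in the same way. CACNAG was in the promoters of Notch1, Notch2 and Notch3, and in 36.7% of all promoters. AGGTCA was in 1 of the 2 Dll1 promoters, and in 14% of all. Notch4 held none of these letters in its window. A match is a description of the sequence and no evidence of binding in these cells.

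Among the ligands, Dll1, a Delta-like ligand that activates receptors on the next cell, read 133 and 101 in the control and 92.1 and 83.7 on the arrays labelled siSocs3. These did not overlap, but the control arrays differed from each other by 0.40 on the log2 scale, and the difference of -0.40 ± 0.17 did not pass (limma adjusted p = 0.175). Its lowest group mean was that of the arrays labelled siRnf31, at 84.6 and 67.6. Dll3, a divergent ligand known to hold back Notch signalling within a cell, read 202 and 254 in the control and 276 and 266 with siSocs3, and both siSocs3 arrays were the highest of the 10. Its difference was 0.26 ± 0.14 (adjusted p = 0.261). Jag1, a Jagged ligand, read 143 and 207 in the control and 149 and 192 with siSocs3, so the groups overlapped fully (-0.02 ± 0.19, adjusted p = 0.954). Jag1 was highest with siRnf31, at 264 and 212. Jag2, the other Jagged ligand, read 216 and 171 in the control and 166 and 200 with siSocs3 (-0.08 ± 0.20, adjusted p = 0.841), and its groups overlapped in all 4 comparisons with the control.

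**Figure D2:**
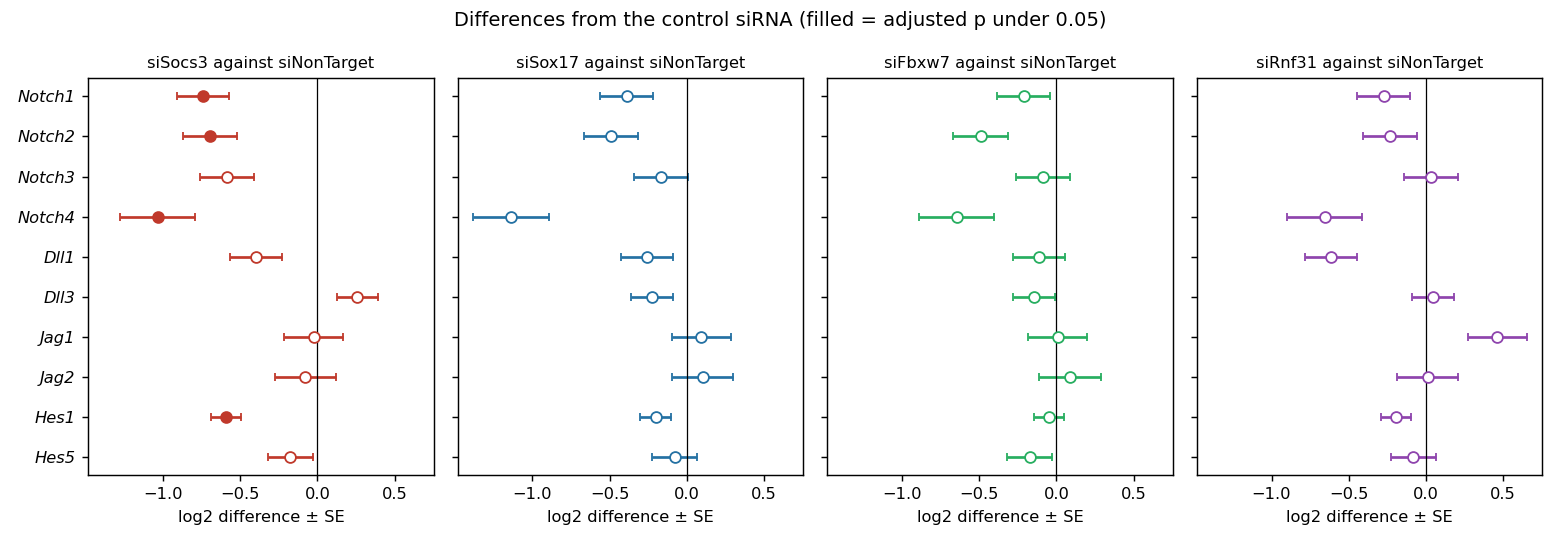
Log2 difference from siNonTarget (horizontal axis) for the 10 members in 4 panels, 1 for each targeting siRNA; points are limma estimates, bars are ± 1 SE, and filled points passed at an adjusted p under 0.05. Filled points are Notch1, Notch2, Notch4 and Hes1 in the siSocs3 panel, from -0.59 to -1.03, and no point in the other panels is filled.

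The plot of differences from the control sets the 4 targeted groups, named by their siRNA label, side by side; all 4 comparisons share the 2 siNonTarget arrays, so a value that is high or low on those arrays enters each. With siSox17, 0 of 10 members passed (limma, Benjamini-Hochberg), where 0.00550% of all genes did, and 3 members had an unadjusted p under 0.05, where 17.3% of all genes had. Notch4 was 1.14 ± 0.24 lower on the log2 scale (adjusted p = 0.138), Notch2 0.49 ± 0.18 lower (adjusted p = 0.211) and Notch1 0.39 ± 0.17 lower (adjusted p = 0.287). The other probe sets differed by -0.001 and 0.20 for Notch4, 0.11 for Notch2 and -0.22 for Notch1. Those of Notch4 and Notch2 were dim. In 4 members both siSox17 arrays lay below both control arrays, where 24.9% of all genes did so and 48.2% were separated in either direction.

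On the arrays labelled siFbxw7, 0 of 10 members passed (limma), where 0% of all genes did; 2 members had an unadjusted p under 0.05, where 6.45% of all genes had. The differences were -0.65 ± 0.24 for Notch4 and -0.49 ± 0.18 for Notch2, both with an adjusted p of 0.752, and -0.05 ± 0.10 for Hes1 (adjusted p = 0.944). On the other, dim probe sets they were 0.08 and 0.18 for Notch4 and -0.11 for Notch2. Lower levels without overlap were seen in 3 members, where 16.1% of all genes were lower in this way and 33.0% were separated in either direction. The 2 siFbxw7 arrays differed from each other: replicate 1 was above replicate 2 for all 4 receptors, by 0.43 in Notch3 and 0.54 in Notch2 on the log2 scale. Replicate 1 was also 1 of the 2 arrays with a high actin difference, and its mean log2 intensity over 9 neural progenitor markers was 7.87, against 7.34 on replicate 2; the part of either in the receptor values was not tested.

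The arrays labelled siRnf31 gave 0 of 10 members passing (limma), where 0% of all genes did, and 3 members at an unadjusted p under 0.05, where 5.87% of all genes passed. Dll1 differed by -0.61 ± 0.17, Notch4 by -0.66 ± 0.24 and Jag1 by 0.46 ± 0.19, all with an adjusted p of 0.778. The 2 dim Notch4 sets had mean intensities of 14.2 and 9.72 here, against 14.23 and 9.775 in the control. Both siRnf31 arrays lay below both controls in 5 members and above them in 1, Jag1, where 18.6% of all genes were lower, 16.6% higher and 35.2% separated in either direction. In this group Jag1 had its highest mean of the 5 groups and Dll1 its lowest, by the probe set that stands for each gene. Of the other 2 Jag1 sets, 1 also had its highest mean here, and the dim 1 had its lowest. On both sets the siRnf31 arrays overlapped the control arrays. They read 87.59 and 65.15 against 45.96 and 91.7, and 27.92 and 27.98 against 30.1 and 26.42.

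The next counts use the probe set that stands for each gene. Counted over the 4 targeted groups, Notch2, Notch4 and Hes1 had both arrays below both control arrays in all 4, Notch1 in 3, Dll1 in 2 and Notch3 in 1. Over all genes, 4.68% showed this in all 4 groups, 13.9% in at least 3, 25.4% in at least 2 and 42.3% in at least 1; the 4 comparisons share the control arrays. For the other members no group was below the control in this way. By the probe set that stands for each gene, the control had the highest mean of the 5 groups for Notch1, Notch2, Notch4, Dll1, Hes1 and Hes5. The other Notch1 probe set had a different order, siFbxw7, siRnf31, siNonTarget, siSox17 and siSocs3 from high to low. On it the siRnf31 arrays, at 152 and 142, overlapped the control arrays, at 147 and 144. The dim second Hes5 set had its highest mean with siSox17. The dim second Notch2 set had its highest mean with siSocs3. On it both siSocs3 and both siSox17 arrays lay above both control arrays. The 2 dim Notch4 sets had their highest means with siFbxw7 and siSox17. Of 40 pairs of neighbouring groups in the order of a member's means, 0 passed limma's test, where 0.352% of such pairs over all genes passed. By limma 3 pairs had an unadjusted p under 0.05. The share of pairs over all genes at that threshold was not computed, so the 3 cannot be judged. The arrays did not overlap in 12 of the 40, where 21.2% of pairs over all genes did not. The pair nearest to the threshold was siSox17 and siSocs3 in Hes1 (adjusted p = 0.0797). For Hes1 and the brighter Notch1 probe set the order of group means was the same, siNonTarget, siFbxw7, siRnf31, siSox17 and siSocs3 from high to low.

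The targeted groups were also compared with each other directly; these differences do not use the levels on the control arrays, though the estimate of spread comes from all 10 arrays. Between siSocs3 and siFbxw7, 1 of 10 members passed, where 3.51% of all genes did and 1.41% passed as lower: Hes1 was 0.54 ± 0.10 lower on the arrays labelled siSocs3 (limma adjusted p = 0.0206). Without adjustment, 4 members had a p under 0.05, beside 18.5% of all genes. The call was lost without siFbxw7 replicate 1 (adjusted p = 0.112) or 2 (0.0504) and without siSocs3 replicate 1 (0.11) or 2 (0.122), while the difference stayed between -0.61 and -0.48. Against siSox17, 0 members passed (limma; 2.61% of all genes did, and 3 members had an unadjusted p under 0.05, beside 17.4% of genes), and Hes1 differed by -0.39 ± 0.10 (adjusted p = 0.0797) and Dll3 by 0.48 ± 0.14 (adjusted p = 0.105). Against siRnf31, 0 members passed (2.13% of all genes did, and 5 members had an unadjusted p under 0.05, beside 16.9% of genes), with Hes1 at -0.40 ± 0.10 (adjusted p = 0.0802) and Notch3 at -0.62 (adjusted p = 0.118). Notch1 differed by -0.35, -0.53 and -0.47 from siSox17, siFbxw7 and siRnf31, without overlap in each (adjusted p = 0.336, 0.141 and 0.213), and without both arrays of high actin difference it passed against siRnf31 (-0.47, adjusted p = 0.043). Notch2 and Notch4 passed in none of these 3 comparisons, with differences of -0.20, -0.20 and -0.46 for Notch2 and 0.10, -0.39 and -0.38 for Notch4. Between siFbxw7, siSox17 and siRnf31, 0 members passed in each of the 3 comparisons (0% of all genes, by limma). At an unadjusted p under 0.05 there were 0 members between siFbxw7 and siSox17 (5.59% of all genes), 2 between siFbxw7 and siRnf31 (5.19%) and 0 between siSox17 and siRnf31 (7.68%).

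**Figure D3:**
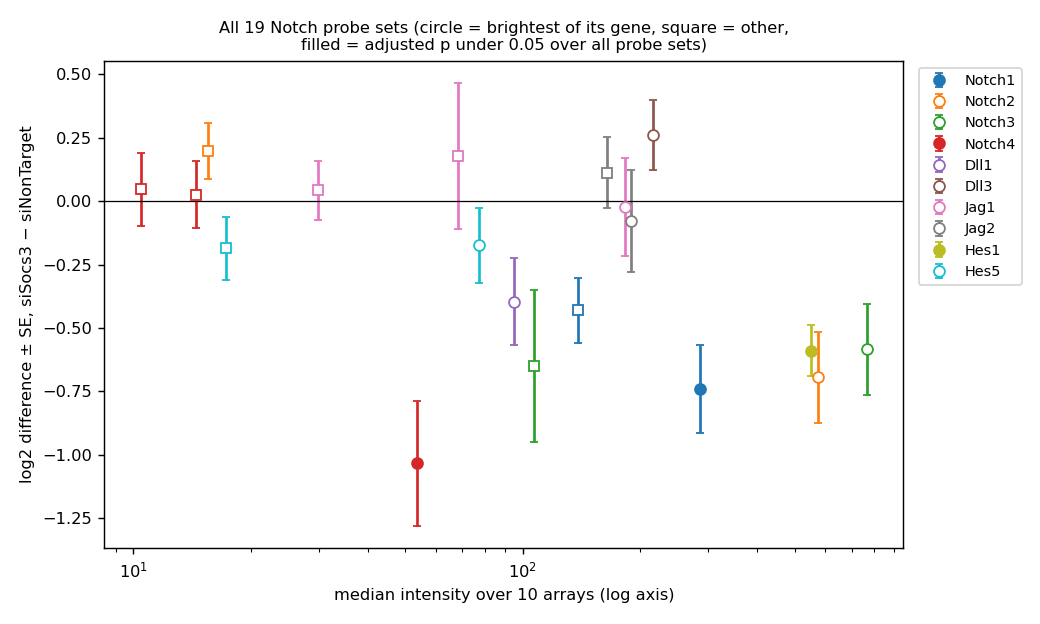
Log2 difference between siSocs3 and siNonTarget arrays (vertical axis, ± 1 SE) of the 19 probe sets of the members against their median intensity over 10 arrays (horizontal axis, log scale). The 5 dim probe sets, with no array above 50, lie between -0.19 and 0.20, and the 3 that passed, from Notch1, Notch4 and Hes1, all lie below 0.

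The plot of all 19 probe sets shows how far the result rests on the probe set that stands for a gene. When each was tested on its own over all 45101 probe sets, 3 of 19 fell with siSocs3 (limma), from Notch1 (adjusted p = 0.0472), Notch4 (0.0498) and Hes1 (0.0189), where 4.99% of all probe sets passed and 2.93% passed as lower. Of the 19, 12 were below 0 and 7 above. The count was 0 without siNonTarget replicate 1 or either siSocs3 array, 1 without siNonTarget replicate 2 or either siRnf31 array, and 0 without both arrays of high actin difference. The brighter Notch2 probe set missed in this fit, with an adjusted p of 0.0639. In 5 of 19 the highest intensity on any array was under 50, and these dim sets include the second Notch2 set and 2 of the 3 Notch4 sets. Over the 10 arrays the log2 values of the 2 Notch1 sets correlated at r = 0.82 and those of the 2 Notch3 sets at r = 0.848, whereas the 2 Notch2 sets correlated at r = -0.579. For Notch4 the 3 pairs had r of -0.05, -0.19 and -0.55. Taking the mean of all sets of a gene gave -0.25 for Notch2 (adjusted p = 0.147) and -0.32 for Notch4 (adjusted p = 0.128), so both calls rest on 1 probe set each.

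**Figure D4:**
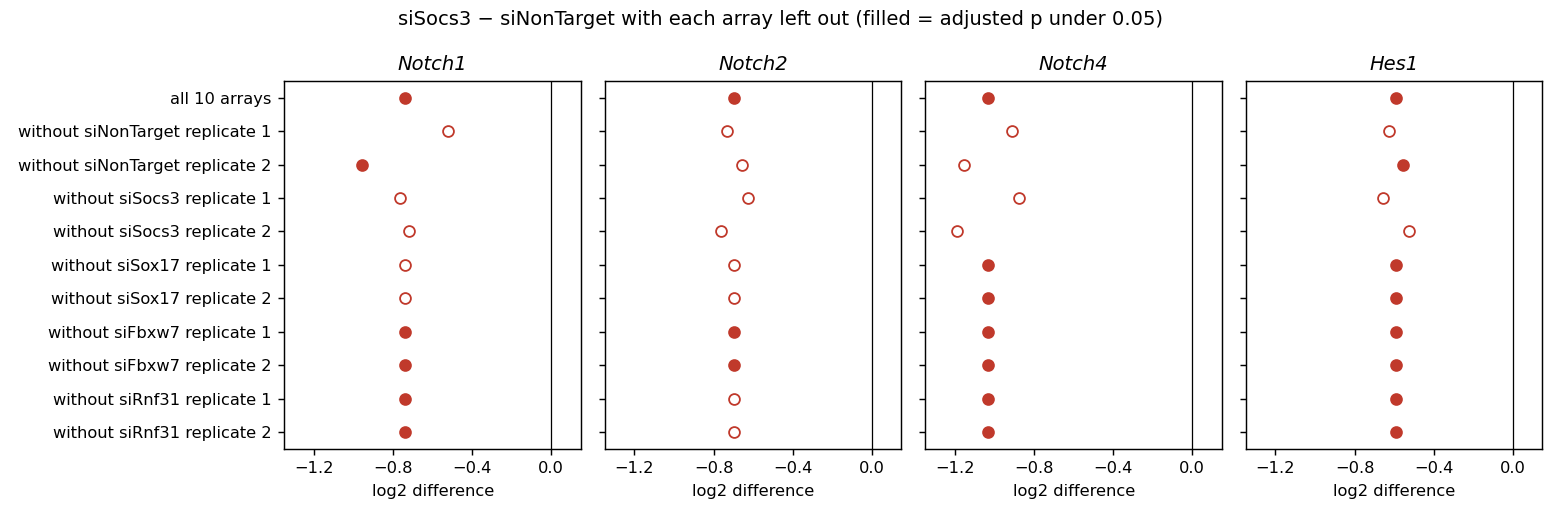
Log2 difference between siSocs3 and siNonTarget arrays for Notch1, Notch2, Notch4 and Hes1 with all arrays and with each of the 10 arrays left out; filled points passed at an adjusted p under 0.05. All points lie below 0, and leaving out an array of siSocs3 or siNonTarget replicate 1 ended every call.

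The plot with 1 array left out at a time gives the spread of the 4 called values. Notch1 ranged from -0.96 to -0.52, Notch2 from -0.76 to -0.62, Notch4 from -1.19 to -0.88 and Hes1 from -0.66 to -0.52, and none came near 0. Every member call was lost without siNonTarget replicate 1 or either siSocs3 array. Fewer members were called without siNonTarget replicate 2 or either siSox17 array, and more without either siFbxw7 array. Over all 18194 genes the number called fell or rose in the same direction in each of these fits. Without both arrays of high actin difference the Notch4 call was lost, and fewer of all genes were called too. With 1 array left in a group, that array is assumed to vary like the others.

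By the probe set that stands for each gene, the receptors were positively correlated over the 10 arrays. Their 6 pairs had correlations of log2 intensity of 0.421 to 0.792, with a median of 0.77, and each receptor correlated with Hes1 at 0.58 to 0.8 and with Hes5 at 0.04 to 0.386. The ligand pairs ran from -0.626, for Dll1 and Jag1, to 0.293, with a median of -0.208. These are descriptions of genes read on the same 10 arrays of 5 groups, and no test goes with them. The level over pairs of all genes was not computed, so the values do not show a trait particular to the receptors. For the called members, the genes whose log2 values were most like theirs over the 10 arrays were Satb1, a chromatin organiser (r = 0.9895), Akap9 (0.9861) and Gfra1, a co-receptor of GDNF (0.9859), for Notch1. For Notch2 they were the homeobox gene Irx5 (0.9737), the surface glycoprotein gene Cd24a (0.9703) and Zfp462 (0.9697). Notch4 was most like Casp9, an initiator caspase (0.9823), Plekha5 (0.9746) and Rassf2 (0.9728), and Hes1 most like the RNA-binding protein gene Msi2 (0.9818), Reck (0.9586) and Spata33 (0.9518). Each was picked as the highest of 18194 genes over 10 arrays.

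Markers of cell identity moved on the same arrays as the receptors. The mean log2 intensity of 9 neural progenitor markers was 7.74 to 8.11 on the control arrays, 7.17 to 7.43 with siSox17, 7.34 to 7.87 with siFbxw7, 7.32 to 7.60 with siRnf31 and 6.32 to 6.76 on the arrays labelled siSocs3, where 7 of 9 fell. Their summed intensity was 2418 to 3176 in the control and 1003 to 1328 with siSocs3. The 10 embryonic stem cell markers had a mean of 10.53 to 10.61 in the control and 11.53 to 11.65 with siSocs3. With siSocs3, 6 of the 10 rose, and of the 10 differences 8 were above 0 and 2 below. Of the other lists, 3 of 7 primitive streak and mesoderm markers and 1 of 7 trophectoderm markers rose, 1 of 9 extraembryonic endoderm and 2 of 9 fibroblast markers fell, and 0 of 6 endothelial markers passed (limma; 3 had an unadjusted p under 0.05). Over all genes 3.59% rose, 5.66% fell and 26.2% had an unadjusted p under 0.05. In a bulk sample fewer cells of a type and less RNA per cell cannot be told apart, and the part of these markers in the receptor and Hes1 values was not tested.

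Other genes of the pathway were described from 7 lists of 60 genes, of which 55 were measured. On the arrays labelled siSocs3, 2 rose and 5 fell against siNonTarget (limma adjusted p under 0.05), which is 12.7% of 55 beside the 9.26% of all genes, and 48 did not pass; the median was -0.10, with 34 of 55 below 0. Fewer of the 7 calls stayed without siNonTarget replicate 1, siSocs3 replicate 2 or both arrays of high actin difference. All 7 were lost without siSocs3 replicate 1. In each of these fits fewer of all genes were called too. With siSox17, siFbxw7 and siRnf31, 0 of 55 passed by limma. Without adjustment, 21, 7 and 7 genes had a p under 0.05, beside 17.3%, 6.45% and 5.87% of all genes. The plot of pathway genes shows the lists.

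**Figure D5:**
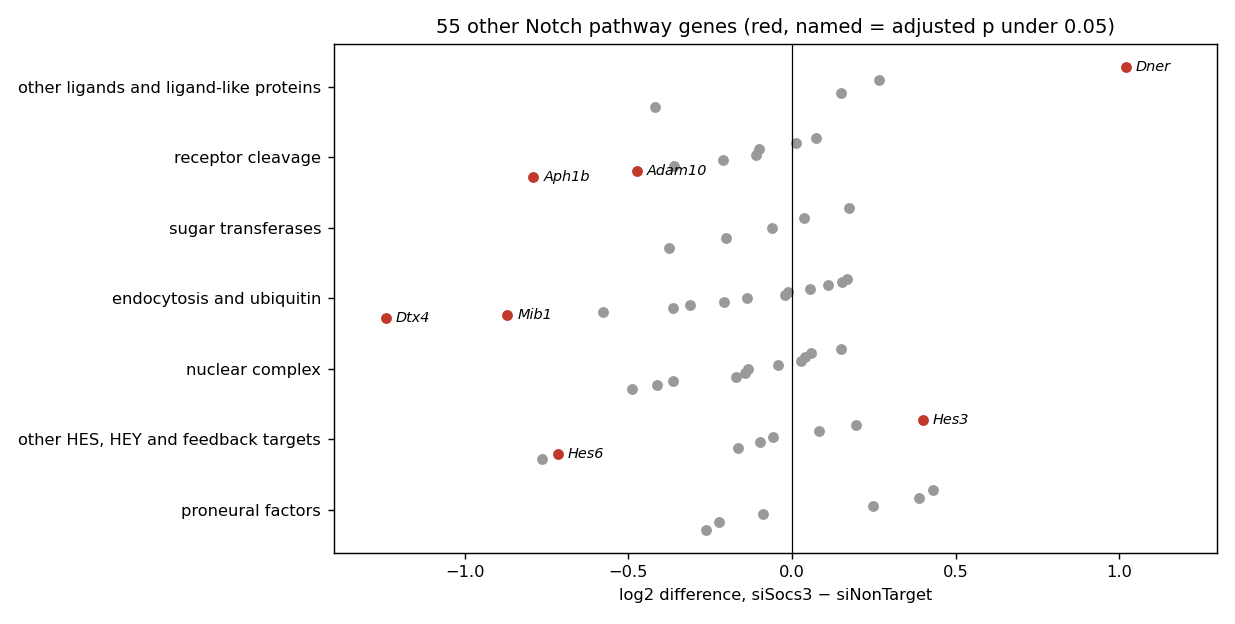
Log2 difference between siSocs3 and siNonTarget arrays (horizontal axis) of 55 other Notch pathway genes in 7 lists (vertical axis); each point is a gene, and red points passed at an adjusted p under 0.05. The red points run from -1.24 for Dtx4 to 1.02 for Dner, and 34 of the 55 points lie below 0.

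Among genes that act in endocytosis and ubiquitination, 2 of 13 fell and none rose, where 5.66% of all genes fell and 3.59% rose. Mib1, the ubiquitin ligase that lets signal-sending cells take up bound ligand, read 798 and 756 in the control and 413 and 438 on the arrays labelled siSocs3, without overlap. It fell by 0.87 ± 0.12 (limma adjusted p = 0.00652), and also against siSox17, siFbxw7 and siRnf31 directly, by 0.58, 0.71 and 0.60 (adjusted p = 0.0413, 0.0155 and 0.0432). Without siSocs3 replicate 1 the difference from the control was -0.83 with an adjusted p of 0.083, and with the mean of its probe sets it was -0.30 with an adjusted p of 0.133. Dtx4, a Deltex-family ubiquitin ligase, read 359 and 251 in the control and 111 and 146 with siSocs3. It fell by 1.24 ± 0.25 (adjusted p = 0.019), which was 0.101 without siNonTarget replicate 1 and 0.169 without siSocs3 replicate 1.

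Of 8 genes of other HES and HEY proteins and of feedback, 1 rose and 1 fell, where 3.59% of all genes rose and 5.66% fell. Hes6, a HES-family member that counters Hes1, read 333 and 335 in the control and 198 and 210 on the arrays labelled siSocs3, so its groups stood far apart and its replicates close together. It fell by 0.72 ± 0.10 (limma adjusted p = 0.0067), with direct differences of -0.48, -0.58 and -0.60 from siSox17, siFbxw7 and siRnf31 (adjusted p = 0.0413, 0.0168 and 0.0213), and without siSocs3 replicate 1 its adjusted p against the control was 0.0843. Hes3, a repressor found in neuroepithelium, was dim at 20.0 and 23.4 in the control and 28.8 and 28.2 with siSocs3. It rose by 0.40 ± 0.11 (adjusted p = 0.0489) and stayed called in 1 of 10 fits with 1 array left out, the adjusted p reaching 0.254, and in 1 of 9 other alternatives.

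In the receptor cleavage list 2 of 8 fell, where 5.66% of all genes did. Aph1b, a subunit of gamma-secretase, read 147 and 167 in the control and 84.6 and 96.5 on the arrays labelled siSocs3, and fell by 0.79 ± 0.14 (limma adjusted p = 0.0145). It lost the call without siNonTarget replicate 1 or 2 (adjusted p = 0.0512 and 0.0552) and without siSocs3 replicate 1 (0.141). Adam10, the protease that makes the first cleavage after ligand binding, read 1633 and 1625 in the control and 1095 and 1256 with siSocs3. It fell by 0.47 ± 0.12 (adjusted p = 0.0384), and stayed called only when a siFbxw7 array was the one left out, the adjusted p running from 0.0501 to 0.263 without any other array. With the mean of its probe sets it was -0.12 (adjusted p = 0.466).

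Dner, a Delta-like transmembrane protein of neurons, was the 1 of 4 other ligand-like genes that rose, where 3.59% of all genes rose. It read 27.6 and 33.5 in the control and 56.6 and 67.3 on the arrays labelled siSocs3. It rose by 1.02 ± 0.20 (limma adjusted p = 0.019), and by 0.95, 1.38 and 1.10 against siSox17, siFbxw7 and siRnf31 (adjusted p = 0.0451, 0.00886 and 0.0321). Without siNonTarget replicate 1 and siSocs3 replicates 1 and 2 its adjusted p against the control was 0.101, 0.107 and 0.0954. The sugar transferases, which modify the receptors, had 0 of 5 genes passing, with Lfng at -0.37 ± 0.13 (adjusted p = 0.116). The nuclear complex had 0 of 11, with Ep300, a histone acetyltransferase, at -0.49 ± 0.15 (adjusted p = 0.076). The proneural factors, which HES proteins repress, had 0 of 6, with Atoh1 at 0.39 ± 0.11 (adjusted p = 0.0567). In these 3 lists 1, 2 and 1 genes had an unadjusted p under 0.05, where 26.2% of all genes had and 9.26% passed after adjustment.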

How the data were processed

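The authors deposited an intensity for each probe set on each array, on a linear scale. Per the submitters' processing notes, RMA was used; its version is not given in the sources used here. RMA corrects background and makes array distributions alike, so a shift common to most genes is hidden, and differences of dim probe sets are compressed. Amplification before labelling started from 5 ng of total RNA, per the labels. Intensities run from 5.05 to 31606.3, and log2 was taken first. The precision is limited by there being 2 arrays in each group.

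Names came from the platform annotation (34958 probe sets with 1 symbol, 932 with several, which were left out, and 9211 unnamed here); 34754 gene IDs matched RefSeq. The probe set of highest mean stood for its gene, which gave 18194 genes. One model over the 5 groups and 10 contrasts was fitted with limma 3.58.1 in R 4.3.3, with no replicate block, and checked on simulated data; figures used matplotlib 3.10.9 under Python 3.11.15. The members and lists were chosen with earlier results of these data known. Named are all members, other pathway genes that passed with siSocs3 (or, in a list with none, the gene of smallest p), and the 3 genes most like each called member, leaving out clone, Gm and Rik names. The alternatives were 11 other settings and leaving out each of 10 arrays.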

Additional observations from a re-analysis of the deposited data

How the results depend on the processing

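No called member changed direction in any of the 21 alternatives. Sign changes among member values numbered 89, and none was of a called value. The largest main difference among them was 0.257 in size. Between siSocs3 and siNonTarget 4 members were called, where 1684 of 18194 genes were. Of these members, 2 remained with quantile normalization (1530 genes) and 2 with the mean of all probe sets of a gene (1261 genes). With 1 array left out, member calls were lost or gained as the number of all called genes fell or rose. With only the 2 groups in the fit the count stayed at 4 (1314 genes). There Notch3 was called (limma adjusted p = 0.0381) and Notch1 was not (0.0598). For siSocs3 against siFbxw7, the 1 call, where 638 genes passed, became 0 with only the 2 groups in the fit (307 genes). It was also lost without both arrays of high actin difference and in some fits with 1 array left out. For siSocs3 against siSox17, 0 became 1 with a pseudocount of 16 (508 genes, against 474). For siSocs3 against siRnf31, 0 became 1 with the pseudocount (Hes1, with 366 genes against 387). Notch1 was called there without both arrays of high actin difference. Of 19 probe sets, the 3 called became 1 with only the 2 groups, 1 with quantile normalization, 1 with the pseudocount, 0 without both arrays of high actin difference, and 0 to 4 with 1 array left out. The other pathway genes, whose alternatives were chosen after seeing the data, went from 7 called to 4 without both arrays of high actin difference and to 0 to 9 with 1 array left out. Why these counts moved was not tested. The number of all probe sets passing in these settings is not given here. Leaving out the dimmest 50% of genes removed Notch4, Dll1 and Hes5, so 7 members were tested there.

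Deviations of same-numbered arrays correlated at -0.26 to 0.421 over 10 pairs of groups, so the replicate numbers did not pair all groups alike. The highest value was that of siNonTarget and siFbxw7. Their replicate 1 arrays were the arrays of high actin difference, and each was the array most correlated with the other. Whether these arrays were processed together is not given in the labels. With the replicate number as a block, 3 members were called between siSocs3 and siNonTarget (Notch1, Notch4 and Hes1), where 1517 of 18194 genes were. There was 1 between siSocs3 and siFbxw7, where 545 genes passed. The other 8 contrasts had 0 each, where 0 to 409 genes passed. Of 19 probe sets, 2 passed.

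RMA intensities hold no measure of background for each probe set, so the 5 member probe sets with no array above 50 cannot show whether their transcripts were present.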
